A study of Mus musculus with 24 samples.

Results

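Osteoblasts, the bone-forming cells, were cultured from mice and compared between a high bone mass line (HBM) and wild type (WT) at day 0, the start of osteoblast differentiation. The members were the 6 day 0 libraries of a series of 24, chosen by their labels: WT and HBM cultures of batches 18, 19 and 21, each WT library paired with the HBM library of the same batch. All groups were grown from pooled calvariae, the flat skull bones, of newborn mice, with 3 independent pooled cultures per genotype, and polyadenylated RNA was sequenced. The labels give neither the mutation nor the strain of the HBM line. The other 18 libraries are the same 2 genotypes and 3 batches at days 10, 15 and 21, and enter here as the source of the error estimate and as a comparison for day 0. Pools of calvarial cells are mixed, and in bulk RNA fewer cells of a type and less RNA per cell cannot be told apart.

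Osteoblasts secrete collagen I as procollagen, whose propeptides are cut off outside or on the way out of the cell before the molecules join into fibrils. The skull vault forms directly in mesenchyme, without a cartilage model, while the skull base forms through cartilage. Cartilage cells are known by collagens II, IX and XI, aggrecan and the transcription factor SOX9.

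The day 0 libraries held 30261649 to 41409307 counts. Levels are given as CPM, counts relative to the scaled library size, and differences as log2 of HBM over WT, so that a negative value means a lower level in HBM. Batch set the libraries apart more than genotype did. The first principal component of the 6 libraries took 56.3% of the variance and placed batch 21 at 72.5 and 78.91, batch 18 at -18.29 and -14.17, and batch 19 at -43.12 in HBM and -75.84 in WT. The WT library of batch 19 stood apart from its HBM partner on the second component too, at -55.42 against -8.843. Batches also differed in other cells: the summed level of 12 macrophage markers was 1170 and 1450 CPM in batch 21 and 45.1 to 131 CPM in the other 4 libraries. The X-inactivation transcript Xist, expressed by female cells, was at 322 CPM in WT and 528 in HBM of batch 18, at 18.0 and 181 CPM in batch 19, and at 0 in both libraries of batch 21. The Y-linked Ddx3y was at 32.6, 22.2 and 91.6 CPM in WT and 18.2, 48.1 and 84.4 CPM in HBM. In batch 19 the Y-linked genes disagreed. There Eif2s3y was at 41.3 CPM in WT and 22.5 in HBM, Kdm5d at 15.4 and 17.7, and Uty at 7.73 and 11.3. The pools of batch 19 thus differed in Xist between the genotypes, and the part of sex composition in the results was not tested. None of the genes called below lies on chromosome X or Y.

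At day 0 few genes passed the threshold between the genotypes, and the largest drops in HBM were in genes of cartilage matrix. Of 16592 genes tested, 2 were higher in HBM (0.0121%) and 19 were lower (0.115%) at an adjusted p under 0.05 in edgeR's quasi-likelihood test, paired by batch. Among the 19 were the collagen IX chains Col9a2 and Col9a3, the cartilage matrix protein gene Comp and chondromodulin, Cnmd. The others included Igfbp2, Ccn2, Fgfr3, Acp5 and the arylsulfatase gene Arsi. Of the 21 genes, 20 had the same sign in all 3 pairs and 10 differed at least 2-fold. Over all genes tested, 13.6% were higher and 14.8% lower in all 3 pairs. The 21 genes were called from these same pairs, so their shared sign follows largely from the selection. Across all genes the median log2 difference was -0.03, with 5% of genes below -0.74 and 5% above 0.51. These calls rest on the spread pooled over all 4 days. The common biological coefficient of variation within pairs was 0.186 at day 0 and 0.0889 to 0.121 on the later days, so the pooled value of 0.131 understates the spread at day 0. The count moved both ways with the analysis: a paired fit of the 6 day 0 libraries alone (14563 genes tested), and fits without batch 19 or without batch 21, gave 0 calls, while DESeq2 gave 45 higher and 121 lower, no filter on low counts 20 and 79, and the fit without batch 18 gave 14 and 66. At an unadjusted p under 0.05, 2668 genes differed, 1318 higher and 1350 lower.

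**Figure D1:**
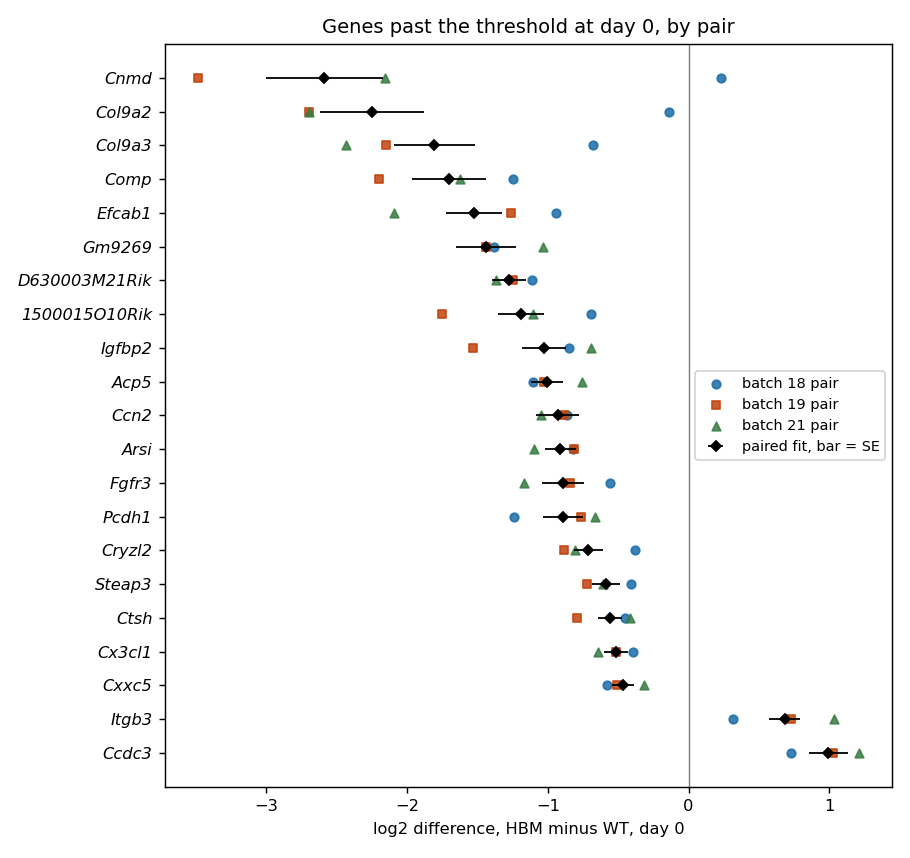
The 21 genes past the threshold at day 0. The x axis is the log2 difference HBM minus WT, coloured symbols are the 3 pairs (log2 CPM with a prior count of 2), and black diamonds with bars are the estimate of the paired fit and its SE. Cnmd is the gene with a pair on the other side of 0, at 0.23 in batch 18.

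The cartilage genes gave the largest drops. Col9a2 encodes a chain of collagen IX, which coats the collagen II fibrils of cartilage. Its level was 1.30, 42.2 and 27.0 CPM in the WT libraries of batches 18, 19 and 21 and 1.17, 6.44 and 4.12 CPM in the HBM libraries. HBM was lower in each pair, but batch 18 had little of this transcript in either genotype, and the groups overlapped because the batches differ. The estimate was a log2 of -2.25 ± 0.37 SE (0.211 of the WT level, adjusted p = 0.0478). Col9a3, a further collagen IX chain, stood at 13.1, 483 and 113 CPM in WT and at 8.16, 109 and 20.8 in HBM. Its log2 difference was -1.81 ± 0.29 (adjusted p = 0.0469), from -0.68 in batch 18 to -2.43 in batch 21.

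Comp encodes a glycoprotein of cartilage and tendon matrix that binds collagen. It stood at 43.4, 273 and 24.9 CPM in WT and 18.3, 59.3 and 8.07 CPM in HBM. Every pair was at least 2-fold apart, with pair values of -1.25, -2.20 and -1.62, and a log2 difference of -1.70 ± 0.27 (adjusted p = 0.0469). Cnmd encodes a cartilage glycoprotein that keeps vessels out. It was at 0.341, 113 and 70.7 CPM in WT and 0.41, 10.1 and 15.8 CPM in HBM, so that batch 18 was near 0 in both genotypes and the log2 difference of -2.59 ± 0.42 (adjusted p = 0.0469) came from the other batches. These 4 genes lie on different chromosomes of the mm10 build: Col9a2 (ENSMUSG00000028626) at chromosome 4, 121039385 to 121055322, and Col9a3 (ENSMUSG00000027570) at chromosome 2, 180597790 to 180622189. Comp (ENSMUSG00000031849) is at chromosome 8, 70373558 to 70382066, and Cnmd (ENSMUSG00000022025), on the minus strand, at chromosome 14, 79637690 to 79662170.

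Among these 4 genes, RefSeq's promoter table (build GRCm38.p6) held an entry for Cnmd and Col9a2, the genes with the largest drops. The 250 bases before the RefSeq start are shown 5′ to 3′ on the gene's strand, at chr14:79662184-79662433 (minus strand) for Cnmd and chr4:121039316-121039565 (plus strand) for Col9a2. The RefSeq start of Col9a2, at 121039566, lies 181 bases inside the GENCODE gene given above, so 181 of the 250 bases, with both marked motifs, fall within that gene model. Capitals mark GGGCGG on either strand, the GC box bound by Sp1-type factors.
Cnmd: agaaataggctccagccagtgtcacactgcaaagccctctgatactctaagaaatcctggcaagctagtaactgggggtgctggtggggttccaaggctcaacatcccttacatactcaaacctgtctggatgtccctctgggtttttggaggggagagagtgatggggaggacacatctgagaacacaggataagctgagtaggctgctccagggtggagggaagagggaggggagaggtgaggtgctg
Col9a2: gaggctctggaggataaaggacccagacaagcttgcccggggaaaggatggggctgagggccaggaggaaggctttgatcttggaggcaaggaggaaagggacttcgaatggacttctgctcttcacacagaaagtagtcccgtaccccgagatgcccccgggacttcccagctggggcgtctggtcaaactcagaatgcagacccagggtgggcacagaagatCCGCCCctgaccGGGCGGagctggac
The Col9a2 window had 2 GC boxes, on opposite strands and starting 26 and 14 bases before the RefSeq start, and the Cnmd window had none, where 32.7% of 32851 RefSeq windows of this length held at least 1. The SOX core, searched as ACAAAG and ACAATG on both strands, was in neither window and in 25.2% of all windows, which says only that these letters are not in these 250 bases.

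Most cartilage markers, though not all, had lower estimates in HBM. Of 16 chondrocyte markers 15 were tested, 4 were lower in HBM at the threshold and 0 were higher, and 9 of 15 were lower in all 3 pairs, against 14.8% of all genes tested. The estimate was above 0 for 2 of the 15. The median log2 difference of the list was -1.37, beside -0.03 over all genes. The summed level of the 16 markers went from 1380 CPM in WT to 896 in HBM in batch 18, from 17500 to 9220 in batch 19, and from 4360 to 1880 in batch 21. HBM was thus at 0.649, 0.527 and 0.431 of WT, while WT libraries themselves spanned 1380 to 17500 CPM, a wider range than that between the genotypes of any batch. The sum was mostly Col2a1, the collagen of cartilage fibrils, at 1202, 15860 and 3790 CPM in WT and 755, 8774 and 1674 CPM in HBM. Col2a1 was lower in each pair, at -0.67, -0.85 and -1.18, but did not pass (log2 -0.90 ± 0.23, adjusted p = 0.226).

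By pair, the list's median was -0.16 in batch 18, -1.80 in batch 19 and -1.59 in batch 21. Batch 18 held the least cartilage signal, and there Col9a1, Col11a2 and Acan, the gene of the cartilage proteoglycan aggrecan, had pair values of 0.30, 0.06 and 0.30. In batch 19 these stood at -2.36, -2.42 and -1.22, and in batch 21 at -3.63, -1.78 and -3.35. Sox9, the transcription factor of cartilage cells, was at 78.6, 93.8 and 112 CPM in WT and 68.3, 62.9 and 93.7 in HBM, lower in each pair without passing (log2 -0.34 ± 0.09, adjusted p = 0.247). Genes of late and growth plate cartilage were near 0: Matn1 was at 0 to 0.398 CPM, Ihh at 0 to 0.0996 CPM and Col10a1 at 0.382 to 2.22 CPM in all 6 libraries. The part of cartilage cells in the other differences was not tested. Without the batch 19 pair the list's median was -1.22, and none of its genes passed.

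**Figure D2:**
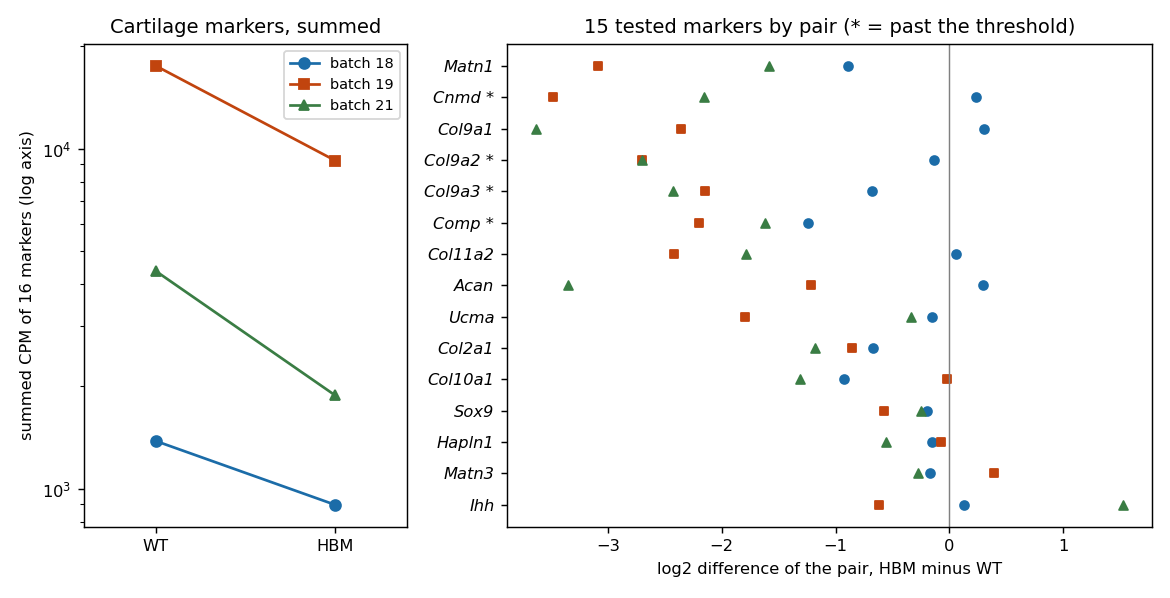
Left, the summed CPM of the 16 cartilage markers in the WT and HBM library of each batch at day 0, on a log axis, lower in HBM in each of the 3 batches. Right, the log2 difference of each pair (HBM minus WT) for the 15 tested markers, where batch 18 (circles) lies nearer to 0 than the other batches for most markers.

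Several other genes lower in HBM encode signalling proteins. Igfbp2, a secreted binder of insulin-like growth factors, was the most abundant of the called genes, at 866, 2806 and 2605 CPM in WT and 479, 968 and 1615 CPM in HBM. HBM was lower in each pair, by log2 values of -0.85, -1.53 and -0.69, with an estimate of -1.03 ± 0.16 (adjusted p = 0.0443). Ccn2, a matricellular protein gene induced by TGF-beta and stretch, stood at 388, 1706 and 1348 CPM in WT and 213, 925 and 653 CPM in HBM. Its pairs lay close together at -0.86, -0.88 and -1.04 (log2 -0.93 ± 0.15, adjusted p = 0.0469). Fgfr3, an FGF receptor that restrains growth of cartilage cells and is also made in osteoblasts, was at 4.29, 10.5 and 22.1 CPM in WT and 2.89, 5.82 and 9.82 CPM in HBM (log2 -0.89 ± 0.15, adjusted p = 0.0478). In batch 18, where the summed cartilage markers were lowest, Igfbp2, Ccn2 and Fgfr3 were at pair values of -0.85, -0.86 and -0.56. The cartilage sum of that batch was also lower in HBM, at 0.649 of WT. The part of cartilage cells in these 3 genes was not tested.

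Acp5 encodes the tartrate-resistant acid phosphatase used as a stain for osteoclasts. It was at 3.00, 32.3 and 1.95 CPM in WT and 1.36, 15.8 and 1.13 CPM in HBM, so that batch 19 exceeded the other batches in both genotypes and HBM was lower in each pair (log2 -1.01 ± 0.11, adjusted p = 0.00905). Of 7 tested osteoclast markers Acp5 alone passed, and 2 were lower in all 3 pairs, against 14.8% of all genes tested. Beside Acp5, the marker lower in all 3 pairs was Atp6v0d2, at low levels. It was at 0.341, 0.284 and 0.667 CPM in WT and 0.137, 0.130 and 0.232 CPM in HBM (log2 -1.34 ± 0.57, adjusted p = 0.293). Calcr had no count, and Ocstamp and Dcstamp were at most 0.227 and 0.0519 CPM in any library. Cathepsin K, Ctsk, stood between 143 and 222 CPM in WT and between 144 and 173 CPM in HBM. The part of osteoclast cells in the Acp5 value was not tested. Ctsh, a lysosomal cysteine protease, stood at 37.4, 129 and 50.7 CPM in WT and 27.3, 74.2 and 37.9 CPM in HBM (log2 -0.56 ± 0.09, adjusted p = 0.0443).

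Arsi was at 52.3, 216 and 118 CPM in WT and 29.6, 123 and 55.3 CPM in HBM, with pair values of -0.82, -0.81 and -1.10 (log2 -0.91 ± 0.11, adjusted p = 0.0175). The smallest p belonged to D630003M21Rik, a gene without an assigned role here, at 3.07, 17.1 and 37.8 CPM in WT and 1.39, 7.17 and 14.6 CPM in HBM (log2 -1.28 ± 0.12, adjusted p = 0.00259). Its 3 pairs were nearly alike, from -1.11 to -1.37. The predicted gene Gm9269, with WT libraries between 0.667 and 0.938 CPM and HBM libraries between 0.246 and 0.312 CPM, was the only called gene whose libraries did not overlap between the genotypes, against 1.64% of all genes with HBM wholly below WT. The rest of the lower genes were 1500015O10Rik, Efcab1, Pcdh1, Cryzl2, Steap3, Cx3cl1 and Cxxc5. Their log2 differences ran from -1.52 for the calcium-binding protein gene Efcab1 to -0.47 for Cxxc5, a CpG-binding protein that dampens Wnt signalling. 1500015O10Rik, which encodes the secreted peptide precursor augurin, was at 50.3, 215 and 183 CPM in WT and 31.1, 63.7 and 84.9 CPM in HBM (log2 -1.19 ± 0.16, adjusted p = 0.0321). Pcdh1, a cell adhesion protocadherin, stood at 2.20, 2.25 and 4.34 CPM in WT and 0.901, 1.30 and 2.72 CPM in HBM, with its largest drop in batch 18. Steap3, which reduces iron in endosomes, was at 16.9, 55.4 and 16.9 CPM in WT and 12.7, 33.6 and 11.1 CPM in HBM. Of the 19 lower genes, 16 reached their highest level of the 6 libraries in WT of batch 19. Genes picked as lower in HBM tend to peak in a WT library, but the selection does not set which WT library that is. Why it was mostly that of batch 19 was not tested. By pair, 11 of the 19 were at least 1.5-fold lower in batch 18, 17 in batch 19 and 17 in batch 21. The shares over all genes tested were not counted for either description.

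**Figure D3:**
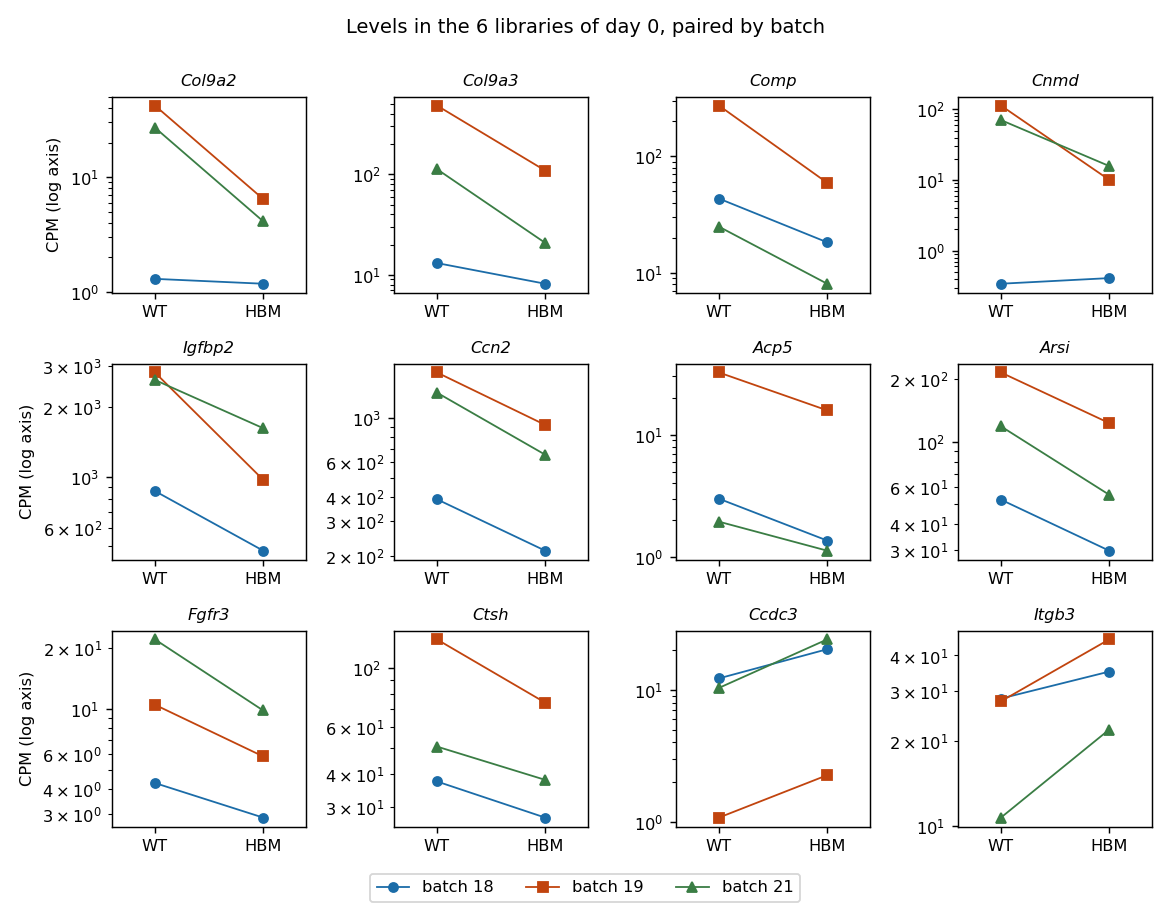
CPM of 12 called genes in the WT and HBM library of each batch at day 0, on log axes, with a line for each pair. In 10 panels the HBM library is lower in the pairs of batches 19 and 21, and in the panels of Ccdc3 and Itgb3 it is higher in all 3 pairs.

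Only Ccdc3 and Itgb3 were higher in HBM at the threshold. Ccdc3, which encodes a secreted coiled-coil protein, was at 12.2, 1.08 and 10.3 CPM in WT and 20.2, 2.26 and 24 CPM in HBM. Each pair was higher in HBM although batch 19 was low in both genotypes (log2 0.99 ± 0.14, adjusted p = 0.0349). Itgb3, the beta chain of the vitronectin receptor, stood at 28.2, 27.5 and 10.7 CPM in WT and 35.1, 45.6 and 21.9 CPM in HBM (log2 0.68 ± 0.11, adjusted p = 0.0469). The pair value of Itgb3 was 0.32 in batch 18 and 1.03 in batch 21. The gene lies at chromosome 11, 104608000 to 104670476.

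The next smallest p-values among higher genes did not pass in edgeR. Tmcc3 was at a log2 of 0.86 (adjusted p = 0.0611) and the actin regulator Eps8 at 0.57 (0.0775). Tfap2b, which encodes a transcription factor of neural crest and its skeletal derivatives, was at 1.30, 0.256 and 1.06 CPM in WT and 4.18, 1.61 and 2.59 CPM in HBM. All 3 HBM libraries exceeded all 3 WT libraries, which held for 1.48% of all genes. Its log2 difference was 1.76 ± 0.33 with an adjusted p of 0.0741 in edgeR, and DESeq2 gave 0.00293. On days 10, 15 and 21 Tfap2b stood at 1.5, 2.06 and 1.69, past the threshold on day 15 (adjusted p = 0.0478).

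Genes of collagen I and of bone formation were compared next. Col1a1 and Col1a2 encode the chains of collagen I. Col1a1 was at 22290, 32960 and 17990 CPM in WT and 22200, 34700 and 24130 CPM in HBM (log2 0.16 ± 0.16, adjusted p = 0.574). Col1a2 was at 15870, 19700 and 12320 CPM in WT and 16950, 23100 and 17060 CPM in HBM, higher in each pair without passing (log2 0.27 ± 0.15, adjusted p = 0.365). Bmp1, whose product cleaves the C-propeptide from procollagen, ranged from 224 to 274 CPM in WT libraries and from 242 to 271 CPM in HBM libraries, with a log2 difference of 0.01 ± 0.09 (adjusted p = 0.979). Its enhancer Pcolce was at 778, 1267 and 645 CPM in WT and 737, 772 and 685 CPM in HBM (log2 -0.23 ± 0.13, adjusted p = 0.354). The groups overlapped for all 4 genes, and the WT library of batch 19 set the highest Pcolce value.

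Several genes of mature osteoblasts and osteocytes were low at day 0 in both genotypes, but not all bone genes were. Osteopontin, Spp1, which also binds mineral, was at 3630, 2620 and 2432 CPM in WT and 3499, 2769 and 3788 CPM in HBM (log2 0.22 ± 0.18, adjusted p = 0.507). Alpl, the phosphatase that frees phosphate for mineral, stood at 1.41, 3.13 and 28.2 CPM in WT and 1.47, 0.442 and 12 CPM in HBM (log2 -1.22 ± 0.38, adjusted p = 0.275). Osteocalcin, Bglap, did not exceed 0.223 CPM in any WT library or 0.166 CPM in any HBM library. Bone sialoprotein, Ibsp, ranged from 0.136 to 0.278 CPM across WT libraries and from 0.364 to 0.491 CPM across HBM libraries (adjusted p = 0.494). The osteocyte gene Dmp1 ranged from 0.364 to 1.36 CPM in both genotypes together, and Sost had no count in any of the 6 libraries. Of 22 osteoblast genes 0 passed, with a median log2 of -0.04. In all 3 pairs 3 were higher and 6 lower, beside 13.6% and 14.8% of all genes tested. The parathyroid hormone receptor gene Pth1r was among the lower ones, at 27.7, 76.9 and 28.8 CPM in WT and 25.5, 40.7 and 20.1 CPM in HBM (adjusted p = 0.283). None of 12 mineralization regulators or 7 osteocyte genes passed, with medians of 0.11 and -0.20. The mineralization list summed to 3790 to 4960 CPM at day 0 and 979 to 4120 CPM later. Spp1, at 2432 to 3788 CPM, made up most of the sum at day 0, so the sum does not describe the list as a group. Ank, which exports pyrophosphate, was at 91.3, 79.4 and 111 CPM in WT and 105, 124 and 129 CPM in HBM (log2 0.35, adjusted p = 0.241). Mgp, an inhibitor of mineralization that cartilage also makes, stood at 298, 1155 and 1050 CPM in WT and 280, 309 and 860 CPM in HBM. Its pair values of -0.09, -1.90 and -0.29 show that batch 19 held most of the difference (log2 -0.75, adjusted p = 0.289).

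Lists of matrix genes are read beside the 0.127% of all genes tested that were called. At that share most lists of this size hold no call, so a list without a call is not a result about its genes. This holds for the other lists too. Of 11 fibrillar collagens 0 passed, and the median was 0.02. Of 17 collagens of fibril surfaces and networks the 2 that passed were Col9a2 and Col9a3, and Col6a3, a chain of the microfibrils around cells, was at 0.71 ± 0.19 (adjusted p = 0.236). No member passed among 10 tested propeptide proteases and enhancers, 24 genes of procollagen hydroxylation and folding, 5 lysyl oxidases or 19 matrix proteases and inhibitors. Their medians lay between -0.04 and 0.05. Tll1, a relative of Bmp1, was at 31.6, 26.1 and 23.9 CPM in WT and 32.5, 68.6 and 24.5 CPM in HBM, where batch 19 alone stood apart (adjusted p = 0.311). Lox, the main crosslinking oxidase of collagen, was at 0.35 ± 0.16 (adjusted p = 0.307).

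Small leucine-rich proteoglycans, which bind collagen fibrils and set their width, had a median of -0.39 with 0 of 12 past the threshold in edgeR. In all 3 pairs 5 were lower and 3 higher, beside 14.8% and 13.6% of all genes tested. Fibromodulin, Fmod, was at 1614, 1803 and 2701 CPM in WT and 1057, 1217 and 2269 CPM in HBM (log2 -0.48 ± 0.11, adjusted p = 0.202). Prelp stood at 160, 154 and 388 CPM in WT and 114, 129 and 254 CPM in HBM (log2 -0.45 ± 0.11, adjusted p = 0.202). Epyc, a cartilage member of the family, was at -0.91 ± 0.22 and osteomodulin, Omd, at -1.03 ± 0.30 (adjusted p = 0.204 and 0.26 in edgeR). DESeq2 gave adjusted p-values of 0.00153, 0.00776, 0.00928 and 0.0297 for Fmod, Prelp, Epyc and Omd. The summed cartilage markers stood at 0.649, 0.527 and 0.431 of WT in the 3 pairs, and their part in these values was not tested.

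Signalling lists held 3 of the called genes. Of 34 BMP and TGF-beta pathway genes Ccn2 was lower and 0 were higher, with a median of -0.05. In all 3 pairs 10 were lower and 3 higher, beside 14.8% and 13.6% of all genes. Id1 and Id2, targets of BMP signals, were among those 10, with log2 differences of -0.75 ± 0.17 and -0.49 ± 0.10 (adjusted p = 0.196 and 0.128 in edgeR). The ligand gene Bmp2 was at 1.95, 1.48 and 2.84 CPM in WT and 3.36, 1.97 and 4.68 CPM in HBM (log2 0.65 ± 0.14, adjusted p = 0.131). Of 22 FGF and IGF genes Igfbp2 and Fgfr3 were lower at the threshold, and 7 were higher and 4 lower in all 3 pairs. The growth factor gene Igf2 was at 29.9, 18.5 and 56.7 CPM in WT and 62.6, 39.9 and 79.4 CPM in HBM, and Igfbp5, a binder of it in bone matrix, at 328, 45.5 and 335 CPM in WT and 529, 104 and 712 CPM in HBM. Both were higher in each pair, and neither passed in edgeR (adjusted p = 0.202 and 0.237), while DESeq2 gave 0.0107 and 0.0143. DESeq2 called more genes than edgeR, and its values for the other genes of these lists are not given. Of 27 tested Wnt pathway genes 0 passed, with a median of -0.20. The Wnt inhibitor Dkk2 was at 69.4, 12.3 and 64.3 CPM in WT and 89.0, 43.1 and 121 CPM in HBM (adjusted p = 0.281).

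Patterning factors of the skull had 0 of 29 past the threshold. In all 3 pairs 5 were higher and 5 lower, beside 13.6% and 14.8% of all genes tested. Foxd1 and Foxc1, forkhead factors of skull mesenchyme, were at -0.78 ± 0.18 and -0.57 ± 0.16 (adjusted p = 0.198 and 0.255). Foxc1 was at 34.6 CPM in WT and 35.1 in HBM of batch 18, and at 71.6 against 35.5 and 74.9 against 45.6 CPM in batches 19 and 21. Without the batch 18 pair Foxc1 and Foxd1 passed, at -0.87 and -1.065 (adjusted p = 0.0207 and 0.0322). Batch 18 held the smallest difference for both, with pair values of 0.02 for Foxc1 and -0.22 for Foxd1. Leaving out that pair favours a call, so these calls add no support. Without batch 19 or batch 21 no gene passed.

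Stress, growth and immune lists had medians near that of all genes. No member passed among 24 genes of the unfolded protein and integrated stress responses, 26 cell cycle genes, 28 interferon genes, 17 immediate early genes, 20 glycolysis and hypoxia genes, 19 sterol genes and 12 contractile genes, with medians from -0.12 to 0.05. The proliferation marker Mki67 was at 85.3, 119 and 48.3 CPM in WT and 128, 211 and 59.2 CPM in HBM (adjusted p = 0.275). Interferon genes differed by batch, with a summed level of 2170 and 2760 CPM in batch 19 and 577 to 686 CPM in the other libraries. In all 3 pairs 7 of the 28 interferon genes were higher and 4 lower, beside 13.6% and 14.8% of all genes tested. Within that list Mx1 and Rsad2 were higher in each pair, with log2 differences of 1.30 ± 0.40 and 1.34 ± 0.42. B2m was lower at -0.41 ± 0.10 (adjusted p = 0.275, 0.275 and 0.204). Outside batch 19 Mx1 was at most 0.901 CPM and Rsad2 at most 1.15 CPM, so their differences rest on low counts there. Cx3cl1, the membrane-bound chemokine fractalkine, was the only one of 20 chemokines and cytokines to pass, at 50.0, 114 and 44 CPM in WT and 38.1, 79.5 and 28.2 CPM in HBM.

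No tested marker of the further cell types passed, where 0.127% of all genes tested did, so this is not a result about these cells. The 12 macrophage markers had 0 members lower and 0 higher in all 3 pairs, beside 14.8% and 13.6% of all genes tested. HBM was at 0.592, 2.18 and 0.807 of the WT sum of these markers in batches 18, 19 and 21. Adipocyte markers summed to 20 to 49.8 CPM in the 6 libraries and 0 of 10 passed. No marker of skeletal muscle (7 tested) or of glial and neural cells (6 tested) passed, and their summed levels were 4.51 to 18.9 and 35.7 to 77.3 CPM. Endothelial markers summed to at most 2.07 CPM, epithelial markers to at most 3.67 CPM, and 5 of 6 erythroid genes had no count.

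**Figure D4:**
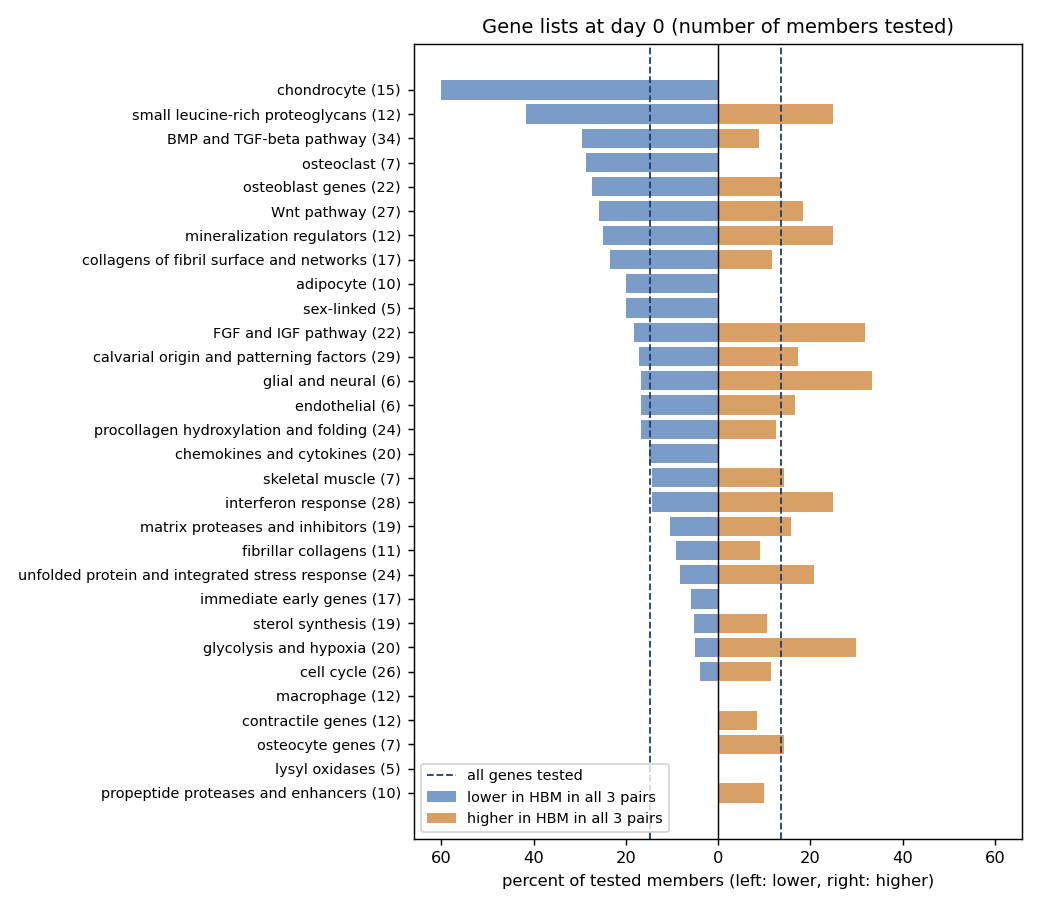
Share of each list's tested members that were lower (left, blue) or higher (right, orange) in HBM in all 3 pairs at day 0, in percent, with the number tested in parentheses. Dashed lines mark the shares of all genes tested, 14.8% lower and 13.6% higher. The chondrocyte list reaches the furthest to the left, with 9 of 15 members.

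The same difference was followed to the later days of culture. Of the 21 genes called at day 0, 15 kept their sign on each of days 10, 15 and 21. On day 10, 3 were past the threshold, D630003M21Rik, Col9a3 and Cx3cl1, and on days 15 and 21 none were. For comparison, 111 genes were higher and 106 lower in HBM on day 10, 40 and 15 on day 15, and 26 and 14 on day 21. Day 0 thus had the fewest genes past the adjusted threshold but the most at an unadjusted p under 0.05, 2668 against 2511, 2082 and 2293 on days 10, 15 and 21. All days share the pooled spread, which lies below that of day 0 and above that of the later days. These counts therefore do not rank the days on equal terms. Since the 21 genes were chosen for their size at day 0, their smaller differences later are a description. Igfbp2 kept a lower level, at -0.62, -0.65 and -0.75 on the 3 later days.

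Whether the day 0 difference itself departed from the mean of the later days was tested in the same fit. The departure passed for 1 gene in the upward direction (0.00603% of genes tested) and for 3 in the downward direction (0.0181%). Prune2 was at 30.9, 22.1 and 19.1 CPM in WT and 45.3, 33.3 and 23.2 CPM in HBM at day 0, a log2 of 0.48 against a mean of -0.42 later (departure 0.89 ± 0.11, adjusted p = 0.0223). Ctsh, lower at day 0, was at 0.25 later (departure -0.81 ± 0.10, adjusted p = 0.0223), and Acp5 at -0.05 later (departure -0.96 ± 0.12, adjusted p = 0.0224). The fourth was the stress-responsive gene Nupr1, named after its values were seen, which did not differ at the threshold at day 0 (log2 -0.22, adjusted p = 0.418) and was 1.04 higher on average later (departure -1.25 ± 0.16, adjusted p = 0.0224). Igf2 departed by 1.46 ± 0.24 without passing (adjusted p = 0.0599), from 0.88 at day 0 to a mean of -0.57 later. The number passing was 0 without batch 19 (1544 at an unadjusted p under 0.05), 16 without batch 18, 176 with no filter on low counts and 381 in DESeq2.

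**Figure D5:**
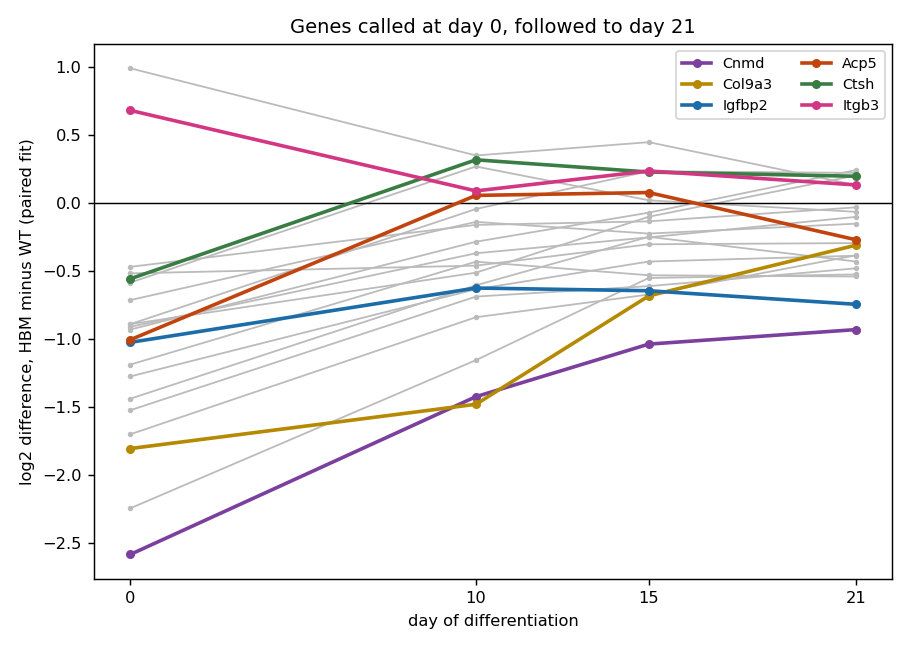
The log2 difference HBM minus WT of the paired fit at days 0, 10, 15 and 21 for the 21 genes called at day 0, with 6 of them coloured. Acp5 and Ctsh go from below 0 at day 0 to near or above 0 on day 10, while Igfbp2 and Cnmd stay below 0 on all 4 days.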

How the data were processed

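The deposited table held raw counts of reads per gene for 24 libraries (54232 rows), made by the authors from polyadenylated RNA. The submitters' processing notes name cutadapt 3.4, STAR 2.7.8a, featureCounts, Subread 2.0.1 and build mm10. Nothing read here states the strand setting, the annotation release or how multiply matching reads were handled, so overlapping, antisense and near-identical genes could not be told apart. GENCODE M21 supplied symbols and coordinates for 54164 rows. A symbol with several identifiers in a gene list was read from the identifier with the most counts.

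Counts were fitted with edgeR 4.0.16 under R 4.3.3. Library sizes were scaled by TMM (factors 0.962 to 1.07 at day 0), filterByExpr over the 8 groups kept 16592 genes, and a quasi-likelihood model of all 24 libraries had a batch term for each day, leaving 8 residual degrees of freedom. Benjamini-Hochberg adjustment covered every gene tested and calls were made under 0.05. DESeq2 1.42.0 with the same design was an alternative and called more genes at day 0. Its adjusted p-values are quoted for some genes only, all of them under 0.05, so they do not single these genes out. All adjusted p-values are from edgeR unless DESeq2 is named. The labels give the number as a batch, and the libraries were paired by it. Deviations from the group mean correlated across genes at 0.657 to 0.815 between WT and HBM libraries of the same batch. Between batches they correlated at -0.55 to -0.007. Deviations within a group sum to 0, so negative values between batches follow in part from positive ones within batches.

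The members, lists and rules were chosen with earlier results of these data known. Named genes were 9 fixed ones, and in each direction the 12 called genes with the largest difference (without predicted or clone names or genes of the sex chromosomes or mitochondrion, with a mean of at least 1 CPM and the same sign in all pairs), or the 5 with the smallest p where fewer than 5 passed. They also included up to 4 members of each list with the smallest p, and the 5 genes with the smallest p in each direction for the contrast with later days. Other called genes and list members are named beyond this rule, after their values were seen.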

Additional observations from a re-analysis of the deposited data

Results flagged for a closer look

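For 4 genes the HBM against WT difference at day 0 departed from the mean difference of days 10, 15 and 21 past the threshold in edgeR's paired fit. The departure was 0.89 for Prune2, -0.81 for Ctsh, -0.96 for Acp5 and -1.25 for Nupr1 on the log2 scale. Groups held 3 libraries, too few to look for a library far from the rest of its group.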

How the results depend on the processing

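The number of calls at day 0 changed with the pairing, the libraries in the fit, the tool and the filter. With no replicate block, 0 genes were higher and 0 lower (206 and 495 at an unadjusted p under 0.05), and 0 departed from the later days (770). A batch term common to all days gave 0 and 0 (555 and 837), the 6 day 0 libraries alone gave 0 and 0 with pairing (169 and 294) and 0 and 0 without pairing (13 and 14). DESeq2 gave 45 higher, 121 lower and 381 departing from the later days, and no filter on low counts gave 20, 79 and 176. Leaving out each pair in turn gave 0 to 14 higher, 0 to 66 lower and 0 to 16 departing. The highest numbers for higher and lower genes came without batch 18, and without batch 19 or 21 none were higher or lower. The cause was not tested, and the fit of 6 libraries changed the spread, the degrees of freedom and the genes tested (14563) at once. With size factors in place of TMM the numbers were 2, 17 and 6. All 21 genes kept their sign in each of these 10 alternatives. This was largely fixed in advance, since the alternatives refit the same counts and 20 of the genes had the same sign in all 3 pairs. The range of their adjusted p-values was 0.0606 to 0.401 without batch 19 and 0.0517 to 0.114 without batch 21, and 16 of the 21 were called again without batch 18.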
